A study of Mus musculus with 6 samples.

Results

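The genes described here are the subunits of the proteasome and the proteins that activate or inhibit it. They were taken by name, as every gene in the deposited tables whose symbol is Psma, Psmb, Psmc, Psmd, Psme or Psmf followed by a number, which gave 44 of 22692 genes. By role these were 8 alpha-ring subunits, 11 beta-ring subunits, 6 ATPases and 11 other subunits of the cap, 3 cap assembly factors, 4 activators and 1 inhibitor. The RNA came from whole eyes of C57BL/6J mice, an inbred laboratory strain, taken 1.5 h or 9.0 h after the lights came on. Each time had 3 libraries, and each library held RNA pooled from 5 female mice aged 4 weeks. The labels give no other difference between the groups than the time, and leave unsaid whether different mice went into the pools of 1 time. The p-values below therefore measure the spread between these libraries, part of which may be technical. Values are in RPKM, reads scaled by gene length and by library total, so that levels can be compared between genes as well as between libraries.

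The proteasome degrades proteins that carry ubiquitin chains. Its core particle is a barrel of stacked alpha and beta rings, in which the alpha rings gate the entrance and a few beta subunits cut the peptide chain. A cap binds the ubiquitin chain, removes it, and unfolds the substrate with a ring of ATPases. Cells exposed to interferon replace the catalytic beta subunits with immunoproteasome counterparts and make more of an alternative activator ring, which favours peptides for antigen presentation. In the eye, the lens and the light-sensitive retina both depend on removal of damaged protein.

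The read total behind each library was estimated from the smallest steps in its values. It was 29010000, 12720000 and 13000000 reads for the libraries of 1.5 h, in order of replicate number, and 31780000, 30130000 and 24060000 reads for those of 9.0 h. In a transcript of 2 kb, 3 reads corresponded to 0.0472 to 0.118 RPKM. Markers of rods, lens and cornea were all present, with Krt12, a keratin of the corneal epithelium, at 1338 to 2162 RPKM. The library labelled 1.5 h replicate 1 had the lowest summed lens RPKM (73060, against 106200 to 125500 in the other 5) and the lowest summed RPKM of 6 skeletal muscle genes (591 against 995 to 1328). The library labelled 1.5 h replicate 3 had the most beta-globin RNA (Beta-s, 367 RPKM against 41.9 to 118), while 4 of the 6 blood genes were listed at 0 in all libraries. That library also held 4 Y-linked genes at 0.126 to 0.780 RPKM that were listed at 0 in the other 5, although the labels call all mice female. The counts over all members, the medians of the single subunit classes and the pathway counts are given below also without these libraries. The medians of the whole core and the whole cap are given with all libraries only.

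No proteasome gene passed the test between the times. Expression at 9.0 h was compared with 1.5 h by limma on log2(RPKM + 0.1), over the 13490 genes that reached 1 RPKM in 3 libraries, and 42 of the 44 genes were among them. None of the 42 had a Benjamini-Hochberg adjusted p under 0.05 in either direction, and the lowest was 0.144. Over all genes tested, 0.148% were called higher and 0.0741% lower at 9.0 h, so that 0 of 42 is near the share of all genes. At an unadjusted p under 0.05, 7 of the 42 were higher (6.47% of all genes) and 0 were lower (4.58% of all genes). These were Psma5, Psmb3, Psmb4, Psmb5, Psmc1, Psme1 and Psme2.

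The members lay more often above than below 0. The log2 fold change was above 0 for 30 of the 42 and below 0 for 12, and ran from −0.30 to 0.58 with a median of 0.16, where the median of all tested genes was −0.003 and 49.4% of them lay above 0. In 11 of the 42 (26.2%) all 3 libraries at 9.0 h exceeded all 3 at 1.5 h, which was so for 9.78% of all genes. In none did the groups separate the other way, as 8.41% of all genes did. The 11 were Psma5, Psmb3, Psmb4, Psmb5 and Psmb7 in the core, Psmc1, Psmd3 and Psmd8 in the cap, the assembly factor Psmd9, the activator Psme1 and the inhibitor Psmf1. All log2 fold changes use log2(RPKM + 0.1), a scale that makes those of low genes too small.

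**Figure D1:**
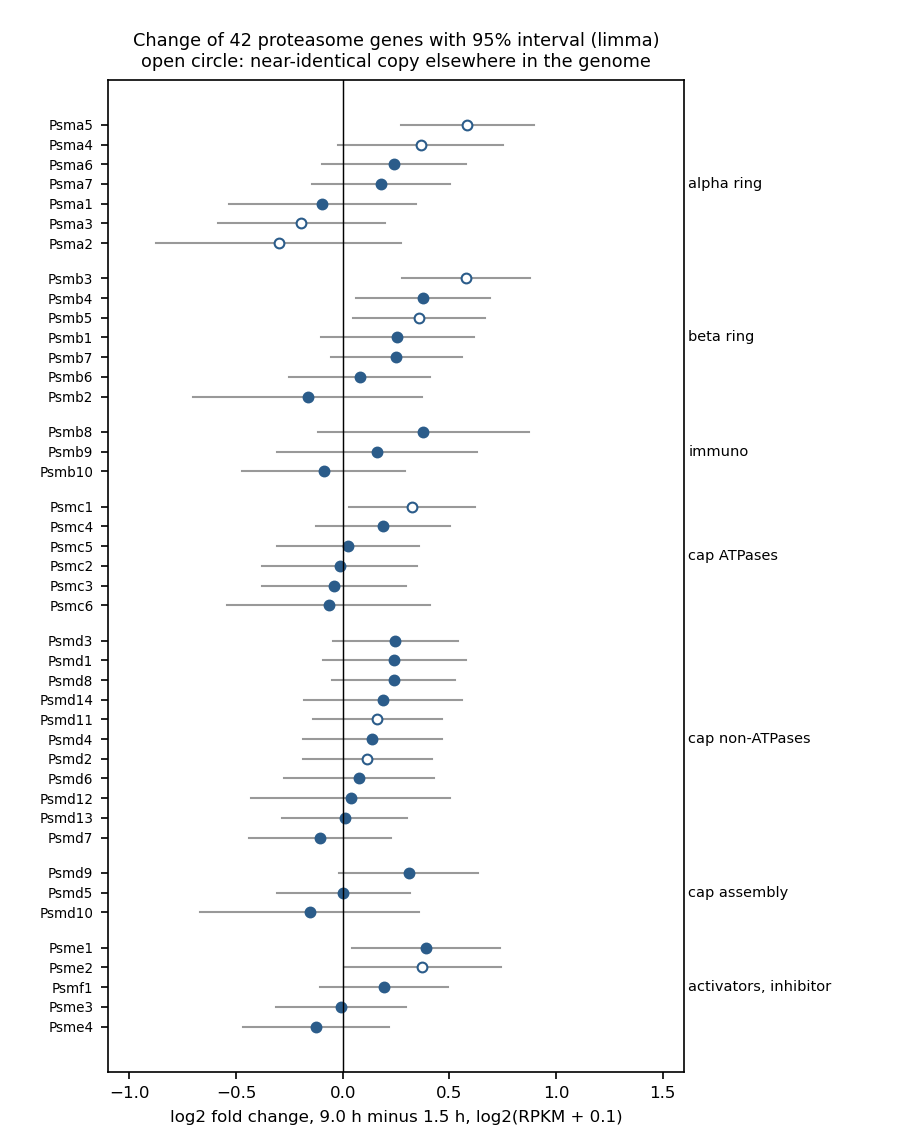
Log2 fold change (9.0 h minus 1.5 h, on log2(RPKM + 0.1)) of the 42 tested genes, by class, with 95% intervals from limma and open circles for genes with a near-identical copy. The points run from −0.30 for Psma2 to 0.58 for Psma5, with 30 above 0 and 12 below.

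The libraries of a time differed among themselves. Averaged over the 42 genes, the log2 level relative to each gene's own mean over the 6 libraries was −0.20, 0.14 and −0.15 at 1.5 h and −0.01, 0.09 and 0.12 at 9.0 h. Replicates 1 and 3 of 1.5 h were thus lower than every 9.0 h library, while replicate 2 of 1.5 h was the highest of all 6, so the groups overlapped. Over all tested genes the same averages lay between −0.04 and 0.05. The summed RPKM of the 44 genes was 1746, 2184 and 1821 at 1.5 h and 2002, 2145 and 2229 at 9.0 h, which also overlapped, with 9.0 h replicate 3 the highest. Over all 22692 genes the sum was 393433, 484249 and 490387 RPKM at 1.5 h and 501906, 546836 and 541816 RPKM at 9.0 h. Every library of 9.0 h thus had a larger total than every library of 1.5 h. The part of these totals in the members' sums was not tested. The lowest value of a gene fell in 1.5 h replicate 1 for 22 of the 42 (27.0% of all genes) and in 1.5 h replicate 3 for 16 (17.7% of all genes). The highest fell in 1.5 h replicate 2 for 16, near the 33.7% of all genes, in 9.0 h replicate 3 for 15 (12.1% of all genes) and in 9.0 h replicate 2 for 7 (8.68%). The tissue marker lists were set side by side between the times as well. Of 9 lens genes 7 had log2 fold changes above 0, with a summed RPKM of 73060 to 110500 at 1.5 h and 108400 to 125500 at 9.0 h, and of 6 muscle genes 5 did, with sums of 591 to 1082 and 1146 to 1328. Of the muscle genes Tcap passed, at 62.7, 75.2 and 57.9 RPKM at 1.5 h and 135, 149 and 207 RPKM at 9.0 h, a log2 fold change of 1.31 (limma adjusted p 0.0224). The retinal lists lay the other way. Of 8 rod genes 2 were above 0 (median −0.18), with sums of 11770 to 13070 RPKM at 1.5 h and 11060 to 12420 at 9.0 h and 3 genes separated downwards, and of 5 tested pigment epithelium genes 1 was above 0 (median −0.17), with sums of 701 to 1121 and 782 to 904 RPKM. Of 5 cornea genes 4 were above 0, with sums of 3264 to 4787 and 3737 to 4801 RPKM. No gene of these lists was at 0 throughout, and the part of tissue make-up in the proteasome values was not tested.

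**Figure D2:**
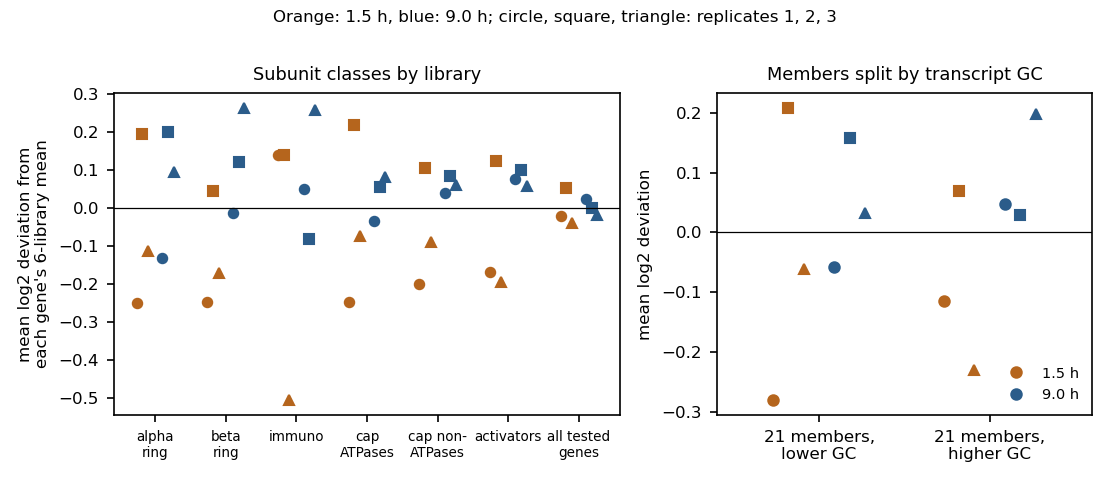
Mean log2 deviation of each class from its genes' own means over the 6 libraries, by library (left; orange 1.5 h, blue 9.0 h, symbols for replicates), and the same for members of lower and higher GC content (right). In the alpha ring and cap ATPases the square of 1.5 h replicate 2 lies with or above the blue points, and all tested genes stay near 0.

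Which members passed differed with the libraries used. Without 1.5 h replicate 1, 3 members passed as higher at 9.0 h, Psma5, Psmb3 and Psmb8, and 1 passed as lower, Psma2, in a fit that called 4.96% of all genes higher and 4.27% lower. Their log2 fold changes were then 0.59, 0.57, 0.48 and −0.61, with adjusted p-values from limma of 0.00559, 0.00845, 0.0321 and 0.00471. In that fit 12 of 42 members separated upwards, against 18.8% of all genes, and 4 downwards, against 19.4%, and the median log2 fold change was 0.105. Without 1.5 h replicate 2, no member passed, and 22 of 42 separated upwards, against 17.5% of all genes. Without 1.5 h replicate 3, no member passed, 11 of 42 separated upwards against 12.2% of all genes, and the median log2 fold change was 0.10. With limma's estimated library weights, 11 members passed as higher, in a fit that called 10.5% of all genes higher.

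Among the alpha-ring subunits, which form the gated ends of the core, the 7 tested had a median log2 fold change of 0.18, 4 above 0 and 3 below. The median was 0.16, 0.24 and 0.11 without replicates 1, 2 and 3 of 1.5 h in turn, 0.03 with quantile normalization, and 0.06 with no filter on low values, which adds Psma8. Psma5 had 14.9, 16.1 and 13.6 RPKM at 1.5 h and 19.6, 24.4 and 23.1 RPKM at 9.0 h. All 3 values at 9.0 h exceeded all 3 at 1.5 h, with means of 14.9 ± 1.23 RPKM at 1.5 h and 22.4 ± 2.46 RPKM at 9.0 h (SD, n = 3). The log2 fold change was 0.58 ± 0.14 (SE), with a 95% interval of 0.27 to 0.90 and a limma adjusted p of 0.154. Psma5 was the alpha subunit with the most positive value, and a near-identical copy of its transcript lies at 2 other genes.

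Psma2, another alpha subunit, had the most negative value of all 42. It stood at 36.4, 84.4 and 56.3 RPKM at 1.5 h and 38.7, 48.4 and 49.3 RPKM at 9.0 h. The 2 highest values were those of 1.5 h replicates 2 and 3, and the lowest was that of 1.5 h replicate 1, so the groups overlapped. Its log2 fold change was −0.30 ± 0.26 (SE; limma adjusted p 0.731), and without 1.5 h replicate 2 it was −0.001. Psma4 stood at 36.4, 45.5 and 30.1 RPKM at 1.5 h and 41.6, 53.8 and 47.7 RPKM at 9.0 h, with a log2 fold change of 0.37 ± 0.18 and only 1.5 h replicate 2 reaching into the range of 9.0 h. Psma3 had low levels, 4.07, 5.08 and 5.40 RPKM at 1.5 h and 3.71, 5.06 and 3.94 RPKM at 9.0 h, and a log2 fold change of −0.19. The most abundant alpha subunits were Psma7, at 101, 108 and 90.9 RPKM at 1.5 h and 104, 110.4 and 126 RPKM at 9.0 h, and Psma6, at 61.1, 76.6 and 67.7 RPKM at 1.5 h and 71.2, 90.8 and 80.9 RPKM at 9.0 h. Their log2 fold changes were 0.18 and 0.24, with overlapping groups in both. The remaining subunit of the ring, Psma1, had a log2 fold change of −0.10. Psma8, a testis form of an alpha subunit, was not tested: it was listed at 0.081, 0.093 and 0.091 RPKM at 1.5 h and 0.056, 0.117 and 0.073 RPKM at 9.0 h, near the value of a few reads.

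The 7 constitutive beta subunits had a median of 0.26, with 6 above 0 and 1 below, and 4 of the 7 separated upwards, against 9.78% of all genes. Of these 4, Psmb3 and Psmb5 have near-identical copies at other genes. The median of these 7 was 0.20, 0.37 and 0.26 without replicates 1, 2 and 3 of 1.5 h in turn, and 0.13 with quantile normalization. Among the 4 that do not cut peptides, Psmb3 had 31.4, 34.0 and 30.0 RPKM at 1.5 h and 43.8, 46.2 and 52.9 RPKM at 9.0 h. Its means were 31.8 ± 2.05 RPKM at 1.5 h and 47.6 ± 4.68 RPKM at 9.0 h (SD, n = 3), and its log2 fold change was 0.58 ± 0.14 (SE), with a 95% interval of 0.28 to 0.88 and a limma adjusted p of 0.144. Psmb3 has near-identical copies at 4 other genes. Psmb4, the most abundant of all the members, had 141, 137 and 131 RPKM at 1.5 h and 161, 178 and 193 RPKM at 9.0 h. Every 9.0 h value exceeded every 1.5 h value, and the log2 fold change was 0.38 ± 0.14 (SE; limma adjusted p 0.359). Psmb1 stood at 72.3, 102 and 86.0 RPKM at 1.5 h and 92.7, 106 and 109 RPKM at 9.0 h, a log2 fold change of 0.26 with overlap through 1.5 h replicate 2. Psmb2 stood at 31.3, 65.9 and 49.4 RPKM at 1.5 h and 34.8, 44.1 and 47.1 RPKM at 9.0 h, a log2 fold change of −0.16, and both the highest and the lowest of its 6 values were at 1.5 h.

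**Figure D3:**
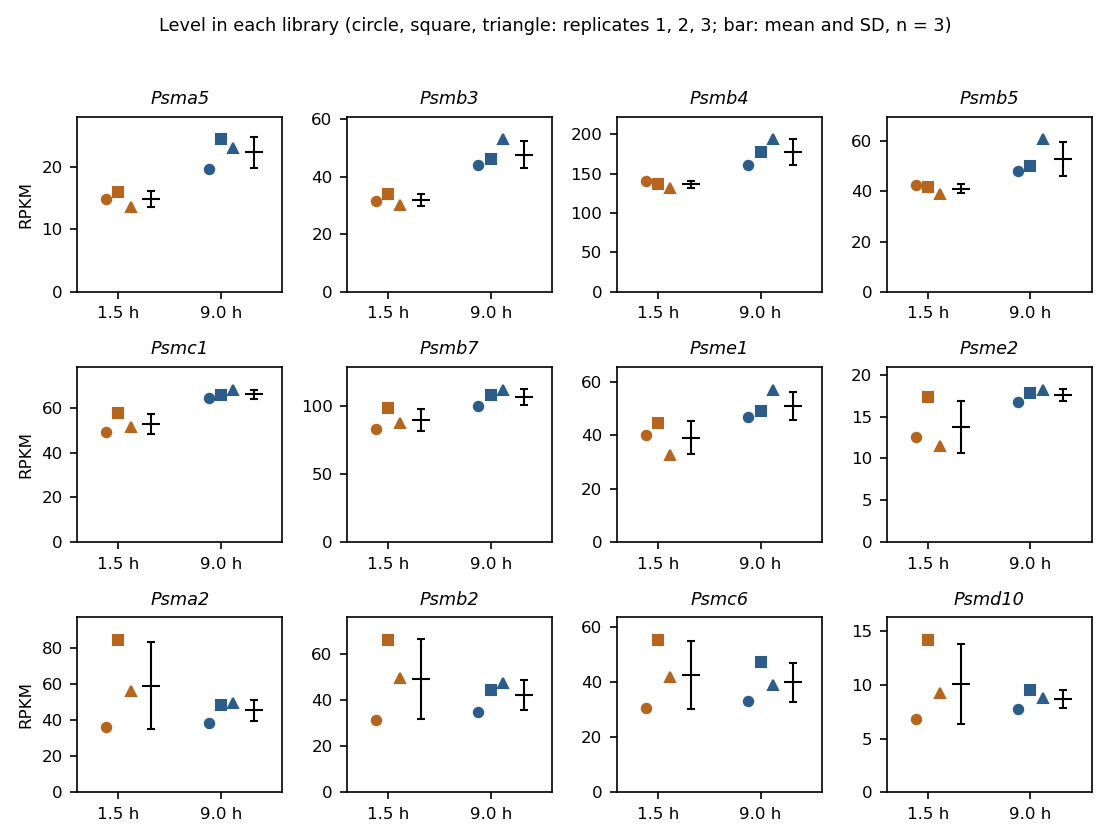
RPKM in each library for 12 members (orange 1.5 h, blue 9.0 h; circle, square and triangle for replicates 1, 2 and 3; black bars, mean and SD, n = 3). In Psma5, Psmb3, Psmb4, Psmb5, Psmc1, Psmb7 and Psme1 the blue points lie above all orange points, whereas in Psma2, Psmb2, Psmc6 and Psmd10 the orange square of 1.5 h replicate 2 is the highest of the 6.

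The catalytic subunits Psmb5, Psmb6 and Psmb7 carry the chymotrypsin-like, caspase-like and trypsin-like activities. Psmb5 had 42.5, 41.7 and 39.1 RPKM at 1.5 h and 48.0, 50.2 and 60.7 RPKM at 9.0 h, and its groups did not overlap. Means were 41.1 ± 1.82 RPKM at 1.5 h and 53.0 ± 6.81 RPKM at 9.0 h (SD, n = 3), a log2 fold change of 0.36 ± 0.14 (SE; limma adjusted p 0.383). Psmb7 had 83.0, 98.6 and 88.0 RPKM at 1.5 h and 100.4, 108 and 112 RPKM at 9.0 h, again without overlap, a log2 fold change of 0.25 ± 0.14 (SE; limma adjusted p 0.553). Psmb6 had 83.5, 94.0 and 73.8 RPKM at 1.5 h and 83.1, 83.9 and 98.1 RPKM at 9.0 h, with overlapping groups and a log2 fold change of 0.08 ± 0.15 (SE), whose 95% interval was −0.25 to 0.41.

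Promoter sequences are given for 4 of these core genes: Psma5 and Psmb3 had the most positive values, Psma2 the most negative, and Psmb5 is a catalytic subunit. Each line gives the 250 bases before the RefSeq gene start, from the build GRCm38.p6, 5′ to 3′ on the gene's strand. Capitals mark matches on either strand to CCAAT, the motif of the factor NF-Y, and to TGANNNNGC, the core of the antioxidant response element, which Nfe2l1 and Nfe2l2 bind. The positions are chr3:108256676-108256925 on the plus strand for Psma5, chr11:97703184-97703433 on the plus strand for Psmb3, chr13:14612992-14613241 on the plus strand for Psma2 and chr14:54617996-54618245 on the minus strand for Psmb5.
Psma5: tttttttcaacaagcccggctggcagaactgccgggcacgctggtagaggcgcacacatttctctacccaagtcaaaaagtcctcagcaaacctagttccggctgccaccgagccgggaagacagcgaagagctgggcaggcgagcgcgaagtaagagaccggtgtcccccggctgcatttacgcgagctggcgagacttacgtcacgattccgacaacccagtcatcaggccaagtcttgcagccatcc
Psmb3: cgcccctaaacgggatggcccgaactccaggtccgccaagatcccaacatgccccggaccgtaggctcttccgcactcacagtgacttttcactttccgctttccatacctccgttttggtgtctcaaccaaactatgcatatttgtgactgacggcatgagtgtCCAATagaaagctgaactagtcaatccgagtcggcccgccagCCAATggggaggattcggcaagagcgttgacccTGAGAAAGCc
Psma2: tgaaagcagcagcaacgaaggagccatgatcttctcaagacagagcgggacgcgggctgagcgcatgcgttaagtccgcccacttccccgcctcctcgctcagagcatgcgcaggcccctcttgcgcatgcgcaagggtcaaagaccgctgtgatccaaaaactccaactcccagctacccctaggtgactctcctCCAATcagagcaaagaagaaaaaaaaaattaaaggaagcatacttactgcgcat
Psmb5: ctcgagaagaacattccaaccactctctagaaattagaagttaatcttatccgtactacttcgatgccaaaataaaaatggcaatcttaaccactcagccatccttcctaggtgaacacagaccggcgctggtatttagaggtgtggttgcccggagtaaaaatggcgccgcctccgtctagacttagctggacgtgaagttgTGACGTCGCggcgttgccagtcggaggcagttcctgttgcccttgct

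Psmb3 held 2 CCAAT matches and 1 TGANNNNGC match in this window, Psma2 held 1 CCAAT, Psmb5 held 1 TGANNNNGC and Psma5 held neither. RefSeq's table gave such a window for 37 of the 44 members. CCAAT was in 14 of the 37 (37.8%), against 37.5% of 27025 gene promoters of the same length, and TGANNNNGC in 14 (37.8%), against 38.7%. The stricter TGACNNNGC, whose matches are all matches of TGANNNNGC too, was in 5 (13.5%, against 11.5%). CACGTG, the E-box form bound by the circadian clock activators, was in 4 (10.8%, against 6.86%), those of Psma4, Psmb10, Psmd9 and Psme3. All motifs were searched on both strands, and a match describes the letters only.

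The immunoproteasome subunits Psmb8, Psmb9 and Psmb10, which replace Psmb5, Psmb6 and Psmb7, were present at lower levels than these. Psmb8 had 15.9, 17.4 and 9.27 RPKM at 1.5 h and 17.1, 15.9 and 20.8 RPKM at 9.0 h, a log2 fold change of 0.38 ± 0.22 (SE) with a 95% interval of −0.12 to 0.87. Psmb9 had 10.3, 8.08 and 5.51 RPKM at 1.5 h and 8.13, 8.18 and 9.72 RPKM at 9.0 h, a log2 fold change of 0.16. Psmb10 had 9.11, 10.6 and 7.48 RPKM at 1.5 h and 8.86, 7.20 and 9.40 RPKM at 9.0 h, a log2 fold change of −0.09. In all 3 the groups overlapped, and in Psmb8 and Psmb9 the lowest of the 6 libraries was 1.5 h replicate 3. Without that library the log2 fold change of Psmb8 was 0.10 and that of Psmb9 was −0.08. The median of the 3 was 0.16, and without replicates 1, 2 and 3 of 1.5 h in turn it was 0.37, 0.20 and −0.08.

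Set against its constitutive counterpart in the same library, Psmb8 stood at 37.3, 41.7 and 23.7% of Psmb5 at 1.5 h and at 35.6, 31.6 and 34.3% at 9.0 h. Psmb9 stood at 7.47 to 12.3% of Psmb6, and Psmb10 at 6.66 to 11.0% of Psmb7. The sum of the 3 was 16.9, 15.4 and 11.1% of the constitutive sum at 1.5 h and 14.7, 12.9 and 14.7% at 9.0 h, with no separation of the times. Psmb11, which takes this place in thymus cortex, was listed at 0.016 RPKM in 1.5 h replicate 1, at 0.008 and 0.010 RPKM in 9.0 h replicates 2 and 3, and at 0 in the other 3 libraries, and was not tested.

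**Figure D4:**
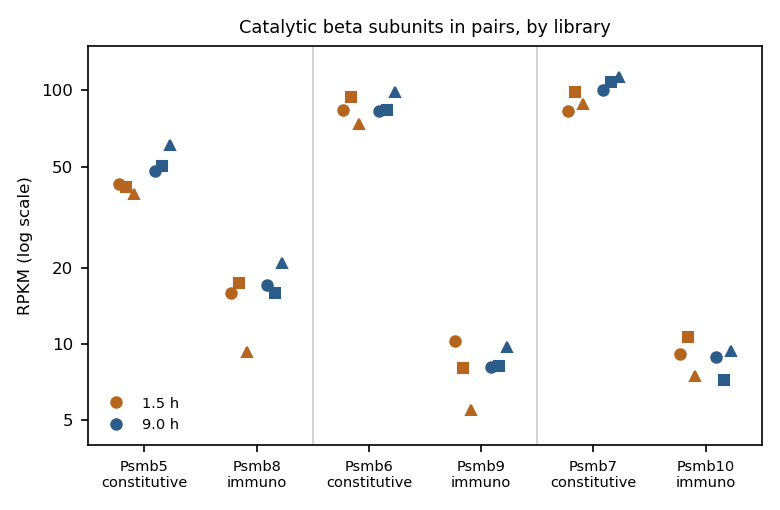
RPKM of the catalytic beta subunits in each library on a log axis, each constitutive subunit beside its immunoproteasome counterpart (orange 1.5 h, blue 9.0 h; circle, square and triangle for replicates 1, 2 and 3). The immunoproteasome subunits lie between 5.51 and 20.8 RPKM, below the 39.1 to 112 RPKM of the constitutive subunits, and the triangle of 1.5 h replicate 3 is lowest for Psmb8 and Psmb9.

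The 6 cap ATPases, which unfold substrates and feed them into the core, had a median log2 fold change of 0.005, with 3 above 0 and 3 below. Without 1.5 h replicate 2 all 6 lay above 0, with a median of 0.14, and without replicates 1 and 3 the median was −0.08 and −0.04. Quantile normalization gave −0.11. Psmc1, whose tail helps to open the gate of the core, had 49.1, 57.9 and 51.6 RPKM at 1.5 h and 64.3, 65.7 and 68.2 RPKM at 9.0 h. Its groups did not overlap, and its log2 fold change was 0.32 ± 0.13 (SE; limma adjusted p 0.398). Psmc4 stood at 52.0, 67.4 and 59.2 RPKM at 1.5 h and 67.2, 65.6 and 69.8 RPKM at 9.0 h, a log2 fold change of 0.19 in which 1.5 h replicate 2 lay inside the range of 9.0 h. The 2 most abundant ATPases were Psmc5, at 98.0, 121 and 93.1 RPKM at 1.5 h and 102, 101 and 112 RPKM at 9.0 h, and Psmc3, at 73.9, 101 and 83.7 RPKM at 1.5 h and 82.4, 78.8 and 88.0 RPKM at 9.0 h. Their log2 fold changes were 0.03 and −0.04. Psmc6 had 30.7, 55.4 and 41.8 RPKM at 1.5 h and 33.4, 47.5 and 39.1 RPKM at 9.0 h, a log2 fold change of −0.07 and the lowest GC content of the members. Psmc2 had a log2 fold change of −0.01, and in Psmc2, Psmc3, Psmc5 and Psmc6 alike the highest library was 1.5 h replicate 2.

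Among the 11 other cap subunits, 10 had log2 fold changes above 0 and 1 below, with a median of 0.14 and a narrow range, up to 0.25. The median was 0.10, 0.23 and 0.11 without replicates 1, 2 and 3 of 1.5 h in turn, and 0.02 with quantile normalization. Psmd3, a lid subunit, had 47.1, 46.1 and 46.8 RPKM at 1.5 h and 57.9, 50.0 and 58.7 RPKM at 9.0 h, with no overlap and a log2 fold change of 0.25 ± 0.13 (SE; limma adjusted p 0.543). Psmd8, another lid subunit and the most abundant of the 11, had 80.9, 80.1 and 76.1 RPKM at 1.5 h and 89.3, 96.7 and 94.0 RPKM at 9.0 h, also without overlap, a log2 fold change of 0.24 ± 0.13 (SE; limma adjusted p 0.548). Psmd1, a large scaffold of the base, had 31.4, 43.3 and 40.0 RPKM at 1.5 h and 45.1, 46.9 and 42.6 RPKM at 9.0 h, a log2 fold change of 0.24 with overlap through 1.5 h replicate 2. Psmd4, a receptor for ubiquitin chains, had 67.9, 84.3 and 70.5 RPKM at 1.5 h and 81.5, 74.2 and 89.2 RPKM at 9.0 h, a log2 fold change of 0.14 with overlapping groups. Psmd7, the partner of the deubiquitinase Psmd14, had 44.5, 60.0 and 46.6 RPKM at 1.5 h and 44.6, 46.1 and 48.6 RPKM at 9.0 h. It was the subunit below 0, at −0.11, with 1.5 h replicate 2 the highest library. Psmd14 itself had a log2 fold change of 0.19. Psmd2, Psmd6, Psmd11, Psmd12 and Psmd13 had values of 0.12, 0.08, 0.16, 0.04 and 0.01.

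The 3 cap assembly factors, which hold ATPases together before the base is complete and are absent from the finished particle, differed among themselves, with a median of 0.002 that was −0.10, 0.12 and 0.03 without replicates 1, 2 and 3 of 1.5 h in turn. Psmd9 had 10.6, 10.5 and 8.43 RPKM at 1.5 h and 12.4, 11.2 and 12.9 RPKM at 9.0 h, without overlap, a log2 fold change of 0.31 ± 0.15 (SE; limma adjusted p 0.478). Psmd10 had 6.83, 14.2 and 9.21 RPKM at 1.5 h and 7.75, 9.48 and 8.80 RPKM at 9.0 h, a log2 fold change of −0.15 ± 0.23 (SE), with its highest and lowest libraries both at 1.5 h. Psmd5 had a log2 fold change of 0.002.

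Of the 4 activators, Psme1 and Psme2 form the ring that interferon induces. Psme1 had 40.0, 44.6 and 32.5 RPKM at 1.5 h and 46.9, 48.8 and 57.0 RPKM at 9.0 h, with no overlap, means of 39.0 ± 6.14 RPKM at 1.5 h and 50.9 ± 5.34 RPKM at 9.0 h (SD, n = 3) and a log2 fold change of 0.39 ± 0.16 (SE; limma adjusted p 0.398). Psme2 had 12.5, 17.3 and 11.5 RPKM at 1.5 h and 16.8, 17.8 and 18.2 RPKM at 9.0 h. Its log2 fold change was 0.37 ± 0.17 (SE; limma adjusted p 0.447), and the groups overlapped only through 1.5 h replicate 2. In both genes 1.5 h replicate 3 was the lowest library, as it was for Psmb8 and Psmb9, and for 16 of the 42 members in all. Psmb10 was lowest in 9.0 h replicate 2. The nuclear activators had values nearer 0: Psme3, which forms a ring on its own, had 26.8, 34.1 and 29.6 RPKM at 1.5 h and 31.3, 29.6 and 28.8 RPKM at 9.0 h, a log2 fold change of −0.01. Psme4, a single large chain that caps the core, had 7.50, 8.60 and 8.45 RPKM at 1.5 h and 8.06, 8.21 and 6.32 RPKM at 9.0 h, a log2 fold change of −0.13. Psmf1, which inhibits the core particle in vitro, had 10.7, 12.9 and 11.4 RPKM at 1.5 h and 13.6, 13.1 and 13.2 RPKM at 9.0 h, without overlap, a log2 fold change of 0.19 ± 0.14 (SE; limma adjusted p 0.649).

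Taken by particle and with all libraries, the 17 tested core genes had a median log2 fold change of 0.24 with 12 above 0, the 17 cap subunits 0.12 with 13 above 0, and the 4 activators 0.18 with 2 above 0. In the core 5 of 17 (29.4%) separated upwards and in the cap 3 of 17 (17.6%), against the 9.78% of all genes given above. Of those 5, Psma5, Psmb3 and Psmb5 have near-identical copies, and of those 3, Psmc1 has. Among all tested genes with such a copy 26.7% separated upwards. The difference between the classes was not tested. The activator median rests on few genes, and with Psme2 left out for its near-identical copy Psme2b it was −0.006 over 3. Over all 4 it was 0.11, 0.29 and 0.12 without replicates 1, 2 and 3 of 1.5 h in turn.

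Levels differed more between subunits than between times. The mean RPKM over the 6 libraries of the 31 constitutive core and cap subunits ran from 4.54 for Psma3 to 157 for Psmb4, a 34.5-fold range, with a median of 48.4. Between 30 and 100 RPKM lay 25 of the 31. In the order of levels, Psmb4 (131 to 193 RPKM) stood above the next gene, Psma7 (90.9 to 126 RPKM), in every library, and Psma3 (3.71 to 5.40 RPKM) stood below Psma5 (13.6 to 24.4 RPKM). The other 28 of the 30 neighbouring pairs in that order overlapped in their range over the 6 libraries. Without Psma3 the range was 8.43-fold. Psma3 has near-identical copies at 4 other genes, and how reads that match several places were counted is not given in the sources used here, so the part of those copies in its low value was not tested.

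Near-identical copies also moved with the differences between the times. Of the 42 tested members, 10 (23.8%) had a transcript with at least 95% identity over at least 200 nt at another gene, against 7.1% of all tested genes. These were Psma2, Psma3, Psma4, Psma5, Psmb3, Psmb5, Psmc1, Psmd2, Psmd11 and Psme2. Their median log2 fold change was 0.34, and 4 of the 10 separated upwards. Over all 958 tested genes with such a copy, 26.7% separated upwards, and their median was 0.20. The 32 without a copy had a median of 0.11 and 7 of 32 separated upwards, in a fit without any such gene in which 8.48% of all genes did. Psma5 and Psmb3, the members with the most positive values, were both among the 10, and the part of the copies in their values was not tested. A further limit on single genes is that 11 members share exons with a gene on the opposite strand, for example Psmb9 with Tap1 and Psmb7 with Nek6. The strand setting of the counting is not given in the sources used here, so reads of such a pair cannot be told apart.

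Base composition of the transcripts moved with the library profile as well. Across the 42 members the log2 fold change had a Spearman correlation of 0.39 with GC content and −0.35 with length, and across the 13378 tested genes with a length these were 0.36 and −0.33. Genes of one library share its preparation and depth, so these are descriptions. The deviation of the members in a library had a Spearman correlation with GC content of 0.57, −0.43 and −0.57 at 1.5 h and of 0.46, −0.47 and 0.69 at 9.0 h. The sign thus differed between libraries of the same time. The 21 members below the members' median GC content of 49.7% had a median log2 fold change of 0.08, with 13 above 0 and 4 separated upwards. The 21 at or above it had 0.18, with 17 above 0 and 7 separated upwards. Over all tested genes, of any GC content, 49.4% lay above 0 and 9.78% separated upwards. The shares of all genes within each GC range were not computed. With per-library trends on GC content and length removed, the median of all 42 was 0.09 and no member passed. The part of base composition in the differences was not tested beyond this.

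**Figure D5:**
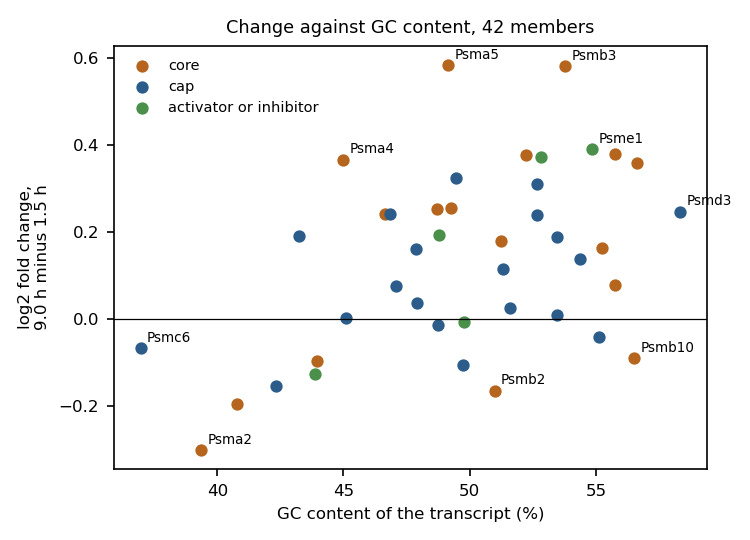
Log2 fold change (9.0 h minus 1.5 h) of the 42 tested members against the GC content of their longest protein-coding transcript, in percent, coloured by core, cap and activator or inhibitor. Members of higher GC content lie above 0 more often, 17 of 21 against 13 of 21, while Psma5 and Psmb3 stand highest, at 49.2 and 53.8% GC. Of all tested genes, of any GC content, 49.4% lie above 0.

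None of the other genes of the pathway passed either. Over 45 tested genes in 6 lists (core assembly chaperones, cap-bound receptors and deubiquitinases, shuttle factors, transcriptional regulators, the p97 segregase with its cofactors, and the ubiquitin genes with their activating enzymes), 0 passed in limma. Of all genes 0.148% passed as higher and 0.0741% as lower. At an unadjusted p under 0.05 in limma, 5 were higher and 0 lower, against 6.47 and 4.58% of all genes. The log2 fold change was above 0 for 30 of the 45, against 49.4% of all genes. The median log2 fold change was 0.10, and 8 of 45 (17.8%) separated upwards and 1 downwards, against 9.78 and 8.41% of all genes. Without 1.5 h replicate 1 the median was 0.006, 4 were called higher (4.96% of all genes), and 11 separated upwards and 6 downwards, against 18.8 and 19.4%. Without 1.5 h replicate 3 the median was 0.11, 0 were called, and 11 separated upwards and 2 downwards, against 12.2 and 13.8%. With all libraries, the downward one was Ubqln4, a shuttle factor that was named after its values were seen, at 19.6, 18.4 and 19.6 RPKM at 1.5 h and 17.5, 15.8 and 16.1 RPKM at 9.0 h.

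Ubb, a ubiquitin gene, had 198, 283 and 184 RPKM at 1.5 h and 285, 264 and 312 RPKM at 9.0 h, overlapping through 1.5 h replicate 2, a log2 fold change of 0.40. A further 2 genes are named because their values stood out. Vcp, the p97 ATPase that extracts ubiquitinated proteins from complexes, had 16.8, 17.6 and 17.9 RPKM at 1.5 h and 30.0, 27.4 and 27.9 RPKM at 9.0 h, a log2 fold change of 0.70 ± 0.12 (SE; limma adjusted p 0.0622). Adrm1, a ubiquitin receptor of the cap, had 8.77, 7.41 and 6.01 RPKM at 1.5 h and 12.4, 11.2 and 13.5 RPKM at 9.0 h, a log2 fold change of 0.75 ± 0.17 (SE; limma adjusted p 0.121). The groups did not overlap in either gene, each has 1 near-identical copy, and neither passed at 0.05.

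In the other lists the 2 most abundant genes had log2 fold changes between −0.04 and 0.27. Pomp, the core maturation factor, was at 0.06 and Psmg1, a core assembly chaperone, at −0.04. The cap proteins Shfm1 and Txnl1 were at 0.07 and 0.18, the shuttle factors Ubqln1 and Ubqln2 at 0.17 and 0.27, and the p97 cofactors Ubxn1 and Ubxn6 at 0.15 and 0.17. Nfe2l1, the main transcriptional activator of proteasome genes, had 53.4, 36.1 and 51.2 RPKM at 1.5 h and 52.0, 43.9 and 43.9 RPKM at 9.0 h, a log2 fold change of 0.01 ± 0.17 (SE). Nfe2l2 was at 0.13.

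Other genes under interferon control, as Psmb8, Psmb9, Psmb10, Psme1 and Psme2 are, were examined beside them. Of 19 tested genes of interferon signalling and antigen presentation, 0 passed in limma, 1 was higher and 0 lower at an unadjusted p under 0.05 (6.47 and 4.58% of all genes), and 0 separated in either direction (9.78 and 8.41% of all genes). The log2 fold change was above 0 for 13 of the 19, with a median of 0.05. B2m, the class I light chain, had 80.2, 187 and 112 RPKM at 1.5 h and 85.9, 110.3 and 108 RPKM at 9.0 h, and H2-D1, a class I heavy chain, had 84.8, 82.4 and 69.2 RPKM at 1.5 h and 74.8, 69.5 and 84.6 RPKM at 9.0 h. The mean deviation of the 19 was lowest in 1.5 h replicate 3, at −0.23, against −0.02 to 0.10 in the other 5, and that of the 3 immunoproteasome subunits was lowest there too, at −0.51, against −0.08 to 0.26. Of 13 immune cell markers, 10 were tested and 6 of them lay above 0. The summed RPKM of the 13 was 150 to 183 at 1.5 h and 142 to 153 at 9.0 h. The largest part of that sum was Lyz2, at 61.0, 90.6 and 58.2 RPKM at 1.5 h and 50.9, 47.8 and 51.5 RPKM at 9.0 h. Lyz2 was the 1 tested marker that separated downwards, and 2 separated upwards, C1qa and Csf1r (8.41 and 9.78% of all genes). Cd3e of T cells was at 0.144 RPKM or lower in every library. In whole-eye RNA, fewer cells of a type and less RNA per cell cannot be told apart.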

How the data were processed

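Poly(A) RNA of whole eyes was sequenced in 6 libraries, 3 at each time, grouped by the labels. The authors deposited 1 table of RPKM values per library for 22692 gene symbols. The unit was taken from the values, whose low entries fell on steps of whole reads (67.1 to 70.6% within 0.1 read). The tools GSNAP and HTSeq and the build mm9 are listed, per the submitters' processing notes. Versions, annotation, strandedness and the handling of reads that match several genes were not given in the sources used here.

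Values were analysed as log2(RPKM + 0.1) with limma 3.58.1 in R 4.3.3 (trend and robust empirical Bayes, no replicate term), over genes with at least 1 RPKM in 3 libraries, two-sided, with Benjamini-Hochberg adjustment over all 13490 and a threshold of 0.05. An exact permutation test of 3 against 3 libraries cannot go below p = 0.1. Separation means that every value of a time exceeded every value of the other. Transcript length, GC content and copies (minimap2 2.31, at least 200 nt, at least 95% identity, at least 5000 nt away) came from GENCODE M21 on GRCm38 and promoters from RefSeq. All 44 members matched. Neither is the build of the files, so no other coordinates are given.

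The members and lists were chosen with earlier results of these data known. Genes were named by a rule: the catalytic, activator, inhibitor and untested members, in each other class the 2 most positive, 2 most negative and 2 most abundant, and in each further list the called or the 2 most abundant, of which some are not reported here. Alternatives covered the pseudocount (0.01 and 1), the filter on low values, quantile and median scaling, a replicate term, trends on GC content and length, library weights, genes with copies left out, and each library left out in turn.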

Additional observations from a re-analysis of the deposited data

How the results depend on the processing

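No proteasome gene passed under other pseudocounts, filters, scalings, GC and length trends removed, copies left out, or the replicate block, and the members' median log2 fold change stayed above 0, from 0.067 (quantile normalization) to 0.236 (without 1.5 h replicate 2). Of 704 comparisons of a member with an alternative setting, 49 had the other sign, in 17 members whose size was 0.164 or less, and none of these was called. Library weights called 11 of the 42 members and 9 of the 45 pathway genes higher, in a fit that called 10.5% of all genes higher. The medians were then 0.577 for the immunoproteasome subunits and 0.021 for the pathway. These weights were 5.52 for 1.5 h replicate 3, against 0.279 to 1.36 for the others, and their estimation stopped before it converged. Members separated downwards numbered 2 under quantile normalization (Psmc3 and Psmd7) and 2 with GC and length trends removed (Psma1 and Psmd7), against 9.11 and 10.7% of all genes. Upwards, 8 of 42 separated under quantile normalization (8.89% of all genes) and 14 of 42 with GC and length trends removed (12.6% of all genes). With copies left out, 7 of 32 members and 4 of 38 pathway genes separated upwards, against 8.48% of all genes in that fit, and the activators' median was −0.006. Quantile normalization gave medians of 0.126 for the constitutive beta ring and 0.02 for the cap non-ATPases. GC and length trends removed called 1 of the 45 pathway genes, Vcp, as higher, in a fit that called 0.467% of all genes higher. Leaving out each library in turn gave 0 to 3 members called higher and 0 to 1 lower, 11 to 22 separated upwards and 0 to 4 downwards, and medians of 0.103 to 0.236. Over all genes these fits called 0 to 4.96% higher and 0.0148 to 4.27% lower, and separated 12.2 to 18.8% upwards and 10.2 to 19.4% downwards. For the pathway genes it gave 0 to 4 called higher, 9 to 13 separated upwards, 1 to 6 downwards, and medians of 0.006 to 0.117. The lowest median and the 6 downwards came without 1.5 h replicate 1. The cause of these differences was not tested.

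The labels do not say whether the replicate numbers pair the samples. Deviations of same-numbered libraries correlated at 0.347, 0.484 and −0.215. Libraries numbered 1 and 2 correlated best with their own number, and those numbered 3 did not. With the replicate block, 0 members and 2 pathway genes, Vcp and Adrm1, were called (0.645% of all genes higher, 0.4% lower), and the limma adjusted p was 0.0584 for Psma5 and 0.0729 for Psmb3. Depth limits low genes, such as Psma8 and Psmb11, to values of a few reads.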
